A study of Homo sapiens with 2 samples.

Results

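Chaperone and protein folding genes were compared between A549 cells in which p62/SQSTM1 was silenced by siRNA (siP62, 1 array) and A549 cells given a control siRNA instead (siCONTROL, 1 array). A549 is an established human lung adenocarcinoma line, total RNA was taken 24 hours after transfection, and 100 ng of it was labelled for Affymetrix whole-transcript arrays. The genes were found by symbol: probe sets with exactly 1 gene symbol that begins with HSPA, HSPB, HSPD, HSPE, HSPH or HSP and a digit, DNAJA, DNAJB or DNAJC, PDI, BAG, CCT or FKBP with a digit, or PFDN. This gave 35 genes on 48 probe sets, out of 14884 genes on 16098 named probe sets, and a gene was represented by whichever of its probe sets had the higher mean over the 2 arrays. No measured difference entered this rule, though the genes were chosen with earlier results of these data known.

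The symbol rule took in more than chaperones, and the named probe sets hold a part of the folding machinery. By their product 29 of the 35 genes encode chaperones, cochaperones or prolyl isomerases. The other 6 do not: PDIK1L encodes a protein kinase, HSPA7 and FKBP9P1 are pseudogenes, HSPB2-C11orf52 is a readthrough transcript, and DNAJC9-AS1 and DNAJC27-AS1 are antisense RNAs of J protein loci. HSP90, J protein, TRiC chaperonin and protein disulfide isomerase genes had 0 probe sets among those named here and were not analysed, nor were HSPA8, the constitutive HSP70, and HSPA5, the HSP70 of the endoplasmic reticulum. Of the compartments, 26 genes belong to the cytosol and nucleus, 2 to mitochondria and 1, FKBP7, to the endoplasmic reticulum, so that compartment is represented here by a single gene.

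Chaperones bind unfolded proteins and let them fold or pass them to degradation. HSP70 proteins do so in cycles of ATP hydrolysis, driven by J proteins, and nucleotide exchange factors of the HSP110 and BAG families release the client. Under proteotoxic stress the transcription factor HSF1 binds heat shock elements, inverted repeats of GAA, in the promoters of cytosolic chaperone genes. BAG3 links HSP70 clients to selective autophagy, in which p62 is a ubiquitin-binding receptor.

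The promoter stretches below belong to the genes on which the account turns: HSPA1A and HSPB1, known heat shock genes whose differences were small, and BAG3, HSPA2 and FKBP7, the kept genes with the largest differences. Each is the 250 bases before the RefSeq start of the gene (GRCh38.p14), written 5′ to 3′ on the strand of the gene, and capitals mark matches to the heat shock letters GAANNTTC or TTCNNGAA.
HSPA1A, chr6:31815293-31815542, plus strand: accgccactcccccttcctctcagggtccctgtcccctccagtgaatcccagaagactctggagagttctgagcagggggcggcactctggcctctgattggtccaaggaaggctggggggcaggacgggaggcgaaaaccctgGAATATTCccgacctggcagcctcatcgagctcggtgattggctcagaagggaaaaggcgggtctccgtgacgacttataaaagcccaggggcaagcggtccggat
HSPB1, chr7:76302423-76302672, plus strand: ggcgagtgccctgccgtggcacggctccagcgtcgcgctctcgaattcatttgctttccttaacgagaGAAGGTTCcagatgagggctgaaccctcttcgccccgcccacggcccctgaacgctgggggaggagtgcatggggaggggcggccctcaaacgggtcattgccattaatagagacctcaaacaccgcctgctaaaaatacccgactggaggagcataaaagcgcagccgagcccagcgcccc
BAG3, chr10:119651130-119651379, plus strand: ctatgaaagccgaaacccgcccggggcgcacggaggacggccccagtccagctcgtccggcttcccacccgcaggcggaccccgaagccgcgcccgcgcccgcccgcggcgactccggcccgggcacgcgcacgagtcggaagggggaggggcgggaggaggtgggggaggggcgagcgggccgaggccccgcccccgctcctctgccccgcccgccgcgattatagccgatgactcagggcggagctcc
HSPA2, chr14:64540491-64540740, plus strand: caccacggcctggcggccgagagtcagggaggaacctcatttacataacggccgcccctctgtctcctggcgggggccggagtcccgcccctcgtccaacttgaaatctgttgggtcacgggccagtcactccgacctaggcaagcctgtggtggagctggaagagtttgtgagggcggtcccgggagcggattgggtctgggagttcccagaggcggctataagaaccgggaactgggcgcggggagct
FKBP7, chr2:178478601-178478850, minus strand: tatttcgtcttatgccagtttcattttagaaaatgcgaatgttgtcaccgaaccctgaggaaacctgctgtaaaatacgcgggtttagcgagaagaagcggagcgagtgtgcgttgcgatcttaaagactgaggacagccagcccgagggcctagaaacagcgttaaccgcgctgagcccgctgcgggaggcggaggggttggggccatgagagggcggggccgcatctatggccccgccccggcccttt
HSPA1A and HSPB1 each hold 1 match, and these letters are not in the windows of BAG3, HSPA2 and FKBP7. The genes shown were chosen by their differences, so this contrast is no test, and BAG3 is itself a known heat shock gene.

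The siRNA target was lower in siP62 cells. SQSTM1 read 7.30 (log2) in siP62 cells, against 8.64 in siCONTROL cells, a difference of -1.34 on its 1 probe set. Every difference below is siP62 minus siCONTROL, in log2 units. As each group had 1 array, there was no replicate, no error and no test, and fewer cells of a type and less RNA per cell cannot be told apart in such bulk samples. Genes were kept where the mean of both arrays was at or above 5.35, the median of all named probe sets, which left 7650 genes with a median difference of 0.04 and a robust SD over genes of 0.22. Of the fixed markers of A549-like epithelium, the 4 named on the array (KRT8, KRT18, KRT19 and EPCAM) were all kept. Of the 4 alveolar type II markers, SFTPC, NKX2-1 and SFTPA1 lay below the limit in both arrays, and SFTPB was kept, with 5.30 in siP62 cells and 5.66 in siCONTROL cells. The endothelial markers PECAM1 and VWF also lay below the limit, and the leukocyte marker CD14 had 5.94 in siP62 cells and 5.98 in siCONTROL cells.

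As a group the chaperone genes differed little. Of the 35 genes 24 were kept, all of them among the 29 with a folding product. In these, 13 differences were above 0 and 11 below, beside 55.5% above and 41.7% below among all kept genes. The median difference of the 24 was 0.015 as deposited, and it turned to -0.025 once the median of all kept genes was subtracted. Without the filter, all 35 genes had 17 differences above 0 and 18 below, with a median of -0.01. A limit of 0.32 on the log2 scale was used to count larger differences. Higher by more than this were 2 genes, FKBP7 and HSPA2, which is 8.33% of the 24, where all kept genes gave 10.7%. Lower by more than 0.32 were also 2, BAG3 and PFDN2, beside 6.77% of all kept genes. Both shares were near those of all kept genes. Past 1.5-fold only FKBP7 was higher, or 4.17% beside 1.84% of all kept genes, and 0 were lower, beside 1.5% of all kept genes. A difference of at most 0.2 in size was found for 16 of the 24, where 63.5% of all kept genes were that close to 0.

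**Figure D1:**
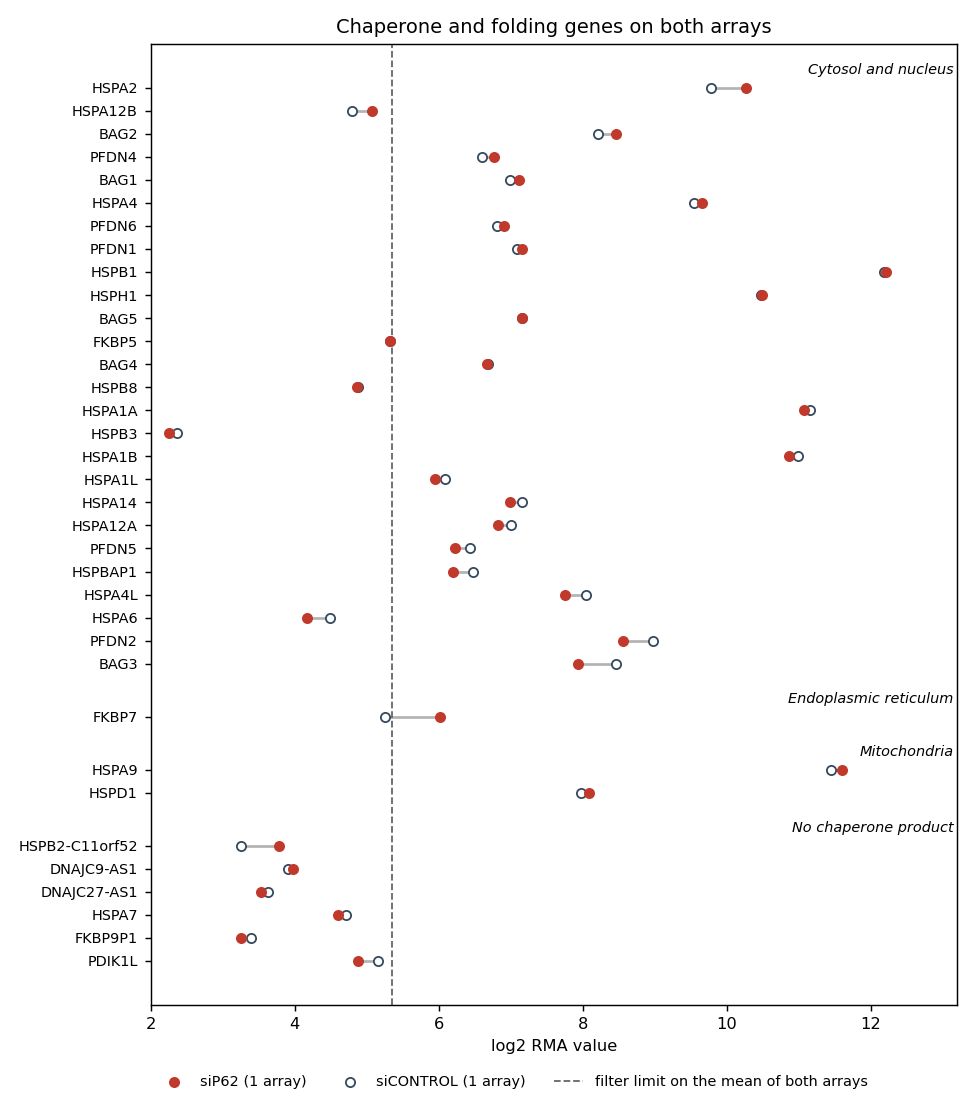
Log2 values (horizontal axis) of the 35 genes in siP62 cells (filled points) and in siCONTROL cells (open points), grouped by compartment and ordered by difference; the dashed line is the filter limit of 5.35 on the mean. Most pairs of points nearly coincide, FKBP7, HSPA2, BAG3 and PFDN2 are the kept genes whose points lie farthest apart, and the 6 genes without a chaperone product all lie below the limit.

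Among the cytosolic HSP70 genes, the stress-inducible pair was slightly lower in siP62 cells. HSPA1A had 11.07 in siP62 cells and 11.16 in siCONTROL cells, a difference of -0.09. HSPA1B, which is near-identical to it, had 10.86 in siP62 cells and 10.98 in siCONTROL cells, a difference of -0.12. The differences at their level had a median of 0.04 and a robust SD of 0.13. With the median of all kept genes subtracted, HSPA1A was at -0.13, about that robust SD, and HSPA1B at -0.16, beyond it. Because their transcripts are so alike, the arrays may not separate the genes, and their values may not be independent of each other. Each was read by 5 probe sets, whose differences ran between -0.10 and -0.08 for HSPA1A and between -0.18 and -0.10 for HSPA1B, so every probe set of the pair was slightly lower in siP62 cells. Some of these repeat one another, since the 5 probe sets of HSPA1A held 3 distinct pairs of values.

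HSPA1L, the testis-enriched neighbour of this pair, depended on the probe set. The one that stood for the gene had 5.95 in siP62 cells and 6.09 in siCONTROL cells, a difference of -0.14. Its other probe sets were each higher in siP62 cells by 0.08, and the mean over all 5 was 0.036, so no direction can be given for this gene. The 5 held 3 distinct pairs of values, so that mean counts a repeated pair more than once.

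**Figure D2:**
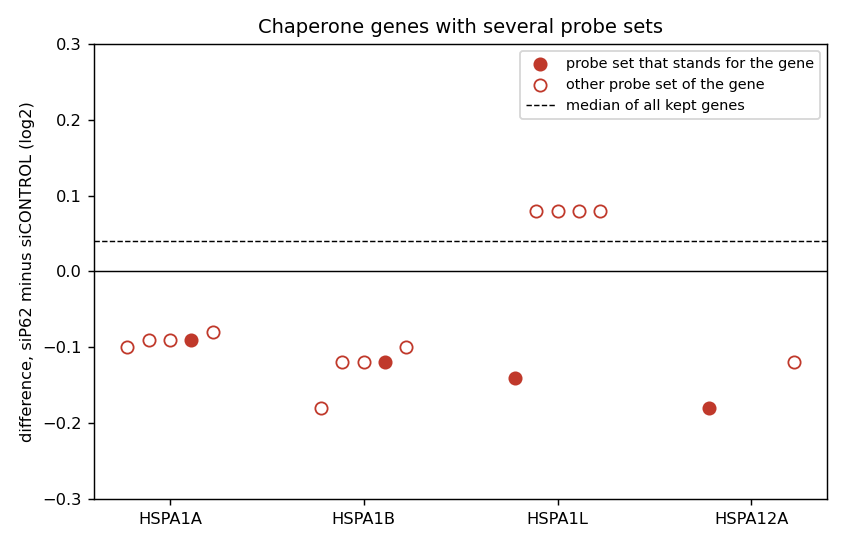
Difference between the arrays (siP62 minus siCONTROL, log2) for each probe set of the 4 genes with more than 1; filled points stand for the gene, open points are its other probe sets, and the dashed line is the median of all kept genes, 0.04. The probe sets of HSPA1A, HSPA1B and HSPA12A all lie below 0, whereas those of HSPA1L lie on both sides, at -0.14 and 0.08.

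HSPA2 had the largest difference of the kept HSP70 genes. It encodes an HSP70 best known from male germ cells, and its log2 value was 10.26 in siP62 cells, against 9.78 in siCONTROL cells. The difference of 0.48 made it 1.39-fold higher, and among the 382 genes of like mean level, itself included, 2 had a higher difference. The robust SD of the differences at that level was 0.13. This group of genes spans a wide range, as it also holds HSPB1, with a mean of 12.195 beside 10.02 for HSPA2. In the group that holds HSPA4, with a mean of 9.595, the robust SD was 0.19. The distant relative HSPA12A had 6.82 in siP62 cells and 7.00 in siCONTROL cells. The ribosome-associated HSPA14 had 6.99 in siP62 cells and 7.15 in siCONTROL cells. Both differences, -0.18 and -0.16, lay within the robust SD of 0.24 at their level. Over the 7 kept HSP70 genes, HSPA9 of mitochondria included, 5 were lower and 2 higher, with a median of -0.12. Among all kept genes 41.7% were lower and 55.5% higher. HSPA1A and HSPA1B, which the arrays may not separate, are both among the 5 lower HSP70 genes. With the mean over all probe sets of a gene, HSPA1L changed sides, giving 4 lower and 3 higher with a median of -0.09.

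The strictly stress-inducible HSPA6 lay below the filter limit in both arrays. Its log2 values were 4.17 in siP62 cells and 4.49 in siCONTROL cells, and those of its pseudogene relative HSPA7 were 4.60 in siP62 cells and 4.71 in siCONTROL cells. HSPA12B, a relative known from endothelium, had 5.07 in siP62 cells and 4.79 in siCONTROL cells. No value of these 3 genes is shown to be above background, since no detection call came with the arrays, and no fold is given for them.

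The exchange factors that reset HSP70 went in different directions. In the BAG family BAG3 was the one member past the limit of 0.32. The log2 value of BAG3 was 7.93 in siP62 cells, against 8.46 in siCONTROL cells, a difference of -0.53 and a 1.44-fold lower level. At its mean level, 6 of 382 genes were lower still, with a robust SD of 0.21. BAG2, which inhibits the ubiquitin ligase CHIP, had 8.46 in siP62 cells and 8.21 in siCONTROL cells. Its difference of 0.25 put it on the other side from BAG3, but short of the limit of 0.32. The robust SD at the level of BAG2 was 0.21, and 64 of 382 genes there were higher. BAG1, the exchange factor often set against BAG3 because it directs clients to the proteasome, had 7.12 in siP62 cells and 6.99 in siCONTROL cells. That difference of 0.13 was within the robust SD of 0.24 at its level. BAG4 and BAG5 were level between the arrays, with differences of -0.01 and 0.01. All 5 were read by 1 probe set each.

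Of the HSP110 exchange factors, HSPA4L was lower and the other two were close to 0. HSPA4L had 7.75 in siP62 cells, against 8.05 in siCONTROL cells, a difference of -0.30. This was just short of the limit of 0.32, and passed it at -0.34 once the median of all kept genes was subtracted. HSPH1 had 10.49 in siP62 cells and 10.47 in siCONTROL cells, and HSPA4 had 9.65 in siP62 cells and 9.54 in siCONTROL cells. HSPBAP1, which binds the small heat shock protein HSPB1, had 6.20 in siP62 cells and 6.47 in siCONTROL cells, with a difference of -0.27 that was close to the robust SD of 0.27 at its level.

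**Figure D3:**
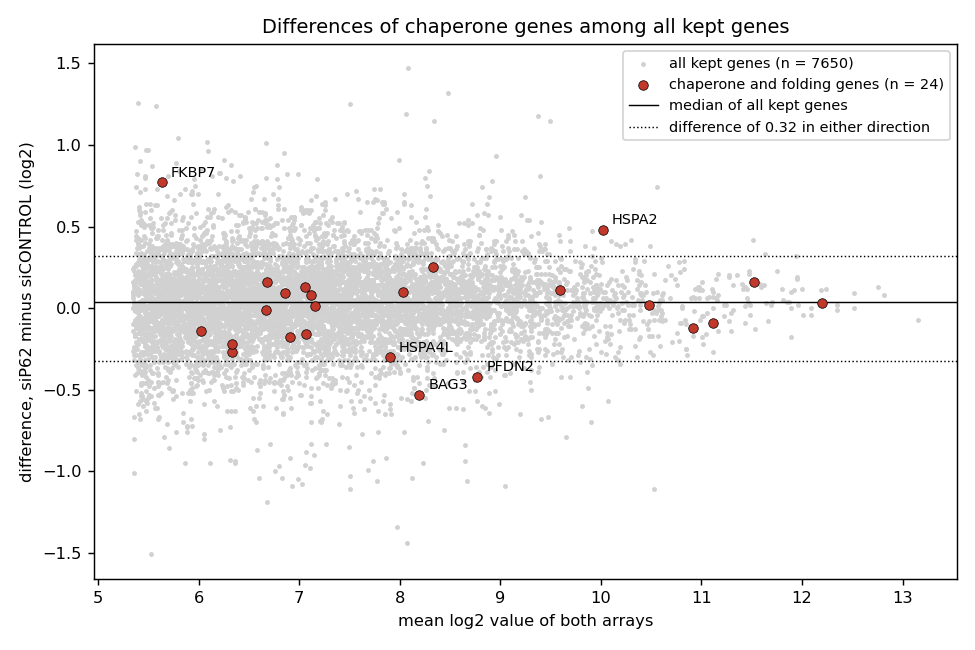
Difference between the arrays (siP62 minus siCONTROL, log2) against the mean log2 value for the 7650 kept genes (grey) and the 24 kept chaperone and folding genes (red); the solid line is the median of 0.04 and the dotted lines mark a difference of 0.32 in either direction. FKBP7 and HSPA2 lie above the upper dotted line and BAG3 and PFDN2 below the lower one, while the other 20 lie between them.

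Small heat shock proteins hold unfolded clients without ATP. HSPB1 (HSP27) had 12.21 in siP62 cells and 12.18 in siCONTROL cells, a difference of 0.03. HSPB8, the partner of BAG3 in selective autophagy of misfolded proteins, lay below the filter limit, with 4.86 in siP62 cells and 4.88 in siCONTROL cells. The muscle gene HSPB3 had 2.26 in siP62 cells and 2.37 in siCONTROL cells. Neither gene gave a value that is shown to be above background.

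Prefoldin delivers nascent actin and tubulin to the TRiC chaperonin. Its subunit genes differed unequally. PFDN2 had 8.56 in siP62 cells, against 8.98 in siCONTROL cells, a difference of -0.42 and a 1.34-fold lower level, with 11 of 382 genes of like mean level lower still. PFDN5 had 6.22 in siP62 cells and 6.44 in siCONTROL cells, a difference of -0.22 inside the robust SD of 0.27 at its level. PFDN1, PFDN4 and PFDN6 were higher by 0.08, 0.16 and 0.09, each less than the robust SD at its level. VBP1 encodes the remaining prefoldin subunit, which has no PFDN symbol, and it had 5.73 in siP62 cells and 6.12 in siCONTROL cells, a difference of -0.39. So 3 subunit genes lay below 0 and 3 above it. Each PFDN gene was read by 1 probe set.

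Both mitochondrial chaperone genes were slightly higher in siP62 cells. HSPA9, or mortalin, the HSP70 that pulls proteins into the matrix, had 11.60 in siP62 cells and 11.44 in siCONTROL cells, a difference of 0.16. HSPD1, the HSP60 chaperonin, had 8.08 in siP62 cells and 7.98 in siCONTROL cells, a difference of 0.10. At the level of HSPA9 the differences had a median of 0.04 and a robust SD of 0.13, and 69 of 382 genes were higher. With the median of all kept genes subtracted its difference was 0.12, within that robust SD. The robust SD at the level of HSPD1 was 0.19, which its difference did not exceed.

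Among prolyl isomerases of the FKBP family, 2 of 14 listed genes had a named probe set, FKBP7 and FKBP5. Of all 24 kept genes FKBP7 had the largest difference. FKBP7, an isomerase of the endoplasmic reticulum, measured 6.02 (log2) in siP62 cells, against 5.25 in siCONTROL cells. The difference was 0.77, and 3 of the 382 genes of like mean level had a higher one. Since its siCONTROL value was under the limit of 5.35, how large the difference is remains uncertain, and the gene did not pass a filter at the 70th percentile (6.67). FKBP5, an HSP90 cochaperone and a known glucocorticoid target, had 5.33 in siP62 cells and 5.32 in siCONTROL cells. Its mean fell just outside the limit, whereas FKBP7 was the kept gene of these families with the lowest mean.

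The 6 genes without a chaperone product all lay below the limit. The largest difference among them was that of HSPB2-C11orf52, with 3.78 in siP62 cells and 3.26 in siCONTROL cells, both in the low range where no signal is shown. PDIK1L had 4.88 in siP62 cells and 5.15 in siCONTROL cells. DNAJC9-AS1 and DNAJC27-AS1 differed by 0.07 and -0.10, and FKBP9P1 by -0.13.

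Genes known to be induced by heat shock were also described across families. Of 17 such genes listed, 8 had a named probe set and 7 of those were kept. They had a median difference of -0.09, with 3 above 0 and 4 below. The 4 below were BAG3, HSPA4L, HSPA1B and HSPA1A, and the 3 above were HSPD1, HSPB1 and HSPH1, the last pair of which turned to the other side of 0 when the median of all kept genes was subtracted. Lower by more than 0.32 was 1 of the 7, BAG3, beside 6.77% of all kept genes, and 0 were higher by as much, beside 10.7% of all kept genes. HSF1, the transcription factor of the heat shock response, had 8.01 in siP62 cells and 7.90 in siCONTROL cells. A list of 14 genes induced by stress of the endoplasmic reticulum had 0 members with a named probe set and was not analysed. Other genes of that stress response were measured and are counted below, among the 38 listed for the endoplasmic reticulum.

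The promoters were searched on both strands for letters bound by stress factors, and RefSeq windows were matched to 28 of the 35 genes, 36 windows in all. The heat shock letters GAANNTTC or TTCNNGAA, each its own reverse complement and able to overlap the other, were found in 12 of the 36 windows (33.3%), those of 11 genes, and in 11.6% of all 35116 windows of the same length. Those of HSPA1A and HSPA1L run on opposite strands and share 241 bases, so 1 match is counted for both. The windows of PFDN6 overlap almost wholly and also hold the same match, so the share of 33.3% counts some matches more than once. HSPA1A and HSPA1B have the same letters at their match. Among kept genes, the 8 with a match had 4 differences above 0 and 4 below, with a median of -0.03, between -0.30 for HSPA4L and 0.25 for BAG2. With the mean over all probe sets of a gene, which moves HSPA1L above 0, they had 5 above and 3 below and a median of 0.03. The 13 without a match had 9 above and 4 below, with a median of 0.08, between -0.53 for BAG3 and 0.77 for FKBP7. All kept genes gave 55.5% above 0 and 41.7% below. The ranges with and without a match overlap, and the extremes on both sides belong to genes without these letters in the window. The kept genes PFDN2 (-0.42), HSPA14 (-0.16) and BAG4 (-0.01), all below 0, had no window and are in neither count. BAG3 and HSPH1, both in the heat shock list above, are among those without a match. HSPA1A, HSPA1B, HSPA4L, HSPA6, HSPB1 and HSPD1 of that list have a match. BAG2, HSPA1L, HSPB3, HSPB8 and PFDN6 have a match and are not in that list. A match in this window therefore does not fully separate the listed heat shock genes from others, and control by HSF1 was not tested. The antioxidant response element TGACNNNGC, the letters bound by NRF2, was in 4 of the 36 (11.1%), beside 10.9% of all windows. A match of letters is not a binding site shown to be used.

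The lists of folding genes without these symbols gave similar small medians. Of 30 other cytosolic folding genes, 15 were kept, with a median of -0.05, 7 above 0 and 8 below. Besides VBP1 the largest differences were those of TOMM34, a cochaperone of mitochondrial import (0.34), and TTC1 (-0.31). In the endoplasmic reticulum 27 of 38 listed folding and stress genes were kept, with a median of -0.04, 12 above 0 and 15 below. ERO1A, the oxidase that drives disulfide formation, was the one at least 1.5-fold apart, with 8.25 in siP62 cells and 8.86 in siCONTROL cells, a difference of -0.61. The others past 0.32 were SEL1L, which was higher (0.54), and EIF2AK3, which was lower (-0.47). Of 17 other mitochondrial folding genes 12 were kept, with a median of 0.065. Above 0 were 9 and below it 3, beside 55.5% and 41.7% of all kept genes. The largest differences there were those of the inner membrane protease AFG3L2 (-0.38), the disaggregase CLPB (0.34) and the prolyl isomerase PPIF (0.29). Higher or lower by more than 0.32 were 1 and 1 of the cytosolic, 1 and 2 of the endoplasmic reticulum and 1 and 1 of the mitochondrial genes, shares between 3.7% and 8.33%, beside 10.7% higher and 6.77% lower among all kept genes.

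**Figure D4:**
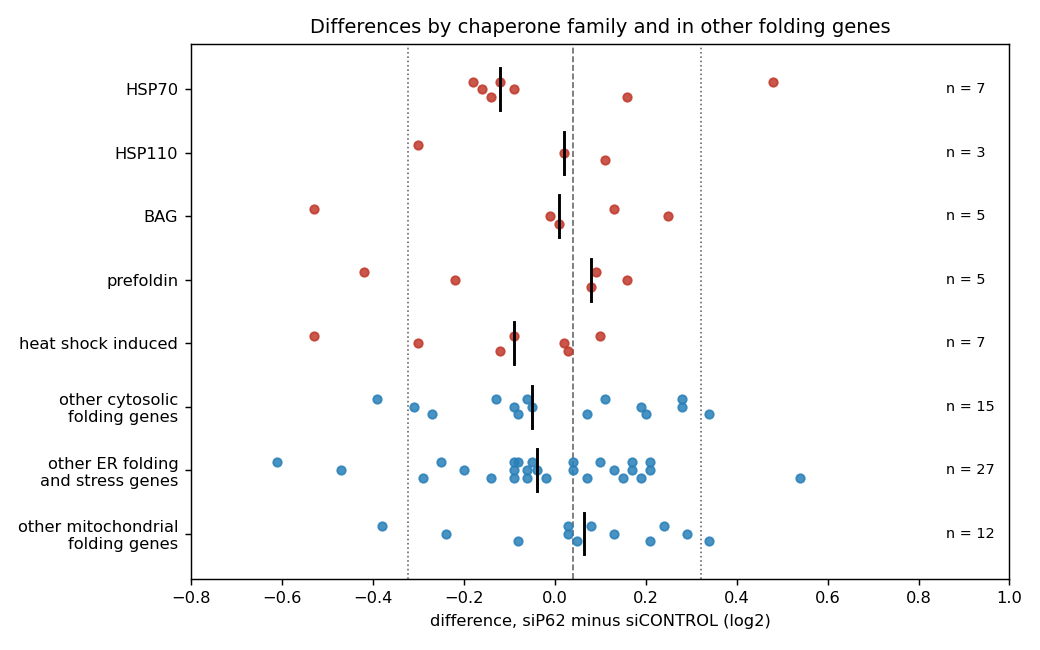
Differences between the arrays (siP62 minus siCONTROL, log2) of kept genes in the chaperone families with at least 3 kept genes and in the heat shock list (red) and in the lists of other folding genes (blue); black bars are medians, the dashed line is the median of all kept genes (0.04) and the dotted lines mark a difference of 0.32 in either direction. The medians of the rows drawn lie between -0.12 and 0.08, and the points of each row except HSP110 and heat shock induced lie on both sides of the dashed line by more than 0.1.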

How the data were processed

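The deposited table holds 1 log2 value per probe set and array, to 2 decimals; the authors' values were used as given. Per the submitters' processing notes the tools were RMA and version 4.0.2.15 of Transcriptome Analysis Console; which arrays were normalized together, and with which build and annotation, is not given in the sources used. A shift common to all genes would not be seen after quantile normalization. Symbols came from the platform annotation, and the identifiers of all 16098 named probe sets (14884 genes) matched RefSeq (GRCh38.p14), used for names, gene types and promoter windows.

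Genes were kept on the mean of both arrays, not on the higher value. The spread at a level is the scaled median absolute deviation of differences in 1 of 20 bins of kept genes of like mean level; it is no replicate error. Counts used a difference of more than 0.32 on the log2 scale, and of 1.5-fold or more. Members, families and lists were chosen with earlier results of these data known. The genes named are SQSTM1, all genes the symbol rule finds, and, of the lists of other folding genes, those 1.5-fold apart or else the 3 with the largest absolute difference. HSF1, SEL1L and EIF2AK3 were added after their values were seen. The alternatives were centring by the median or by loess (span 0.3), quantile normalization, the mean over probe sets and 3 other filters. The steps were tested on simulated data, with counts past 1.5-fold. The planted differences were larger than 0.32 and the noise was smaller than the spread seen here, so the limit of 0.32 was not tested. Python 3.11.15, pandas 2.3.3, NumPy 2.4.6, statsmodels 0.14.6 and matplotlib 3.10.9 were used.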

Additional observations from a re-analysis of the deposited data

How the results depend on the processing

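The 2 arrays hold no replicate, so no replicate could be left out, and the number of arrays limits every value. No paired analysis was possible because each group has 1 array and the values come from no test. The median difference of all 24 kept genes, 0.015, changed sign under 4 alternatives: it was -0.025 with the median of all kept genes subtracted, -0.0263 with loess centring, -0.03 with quantile normalization and -0.01 without a filter. That of the cytosolic genes, -0.01, became 0.015 under a filter set at the 70th percentile and 0.01 with the mean over probe sets. In an alternative chosen after seeing the data, the mean over probe sets gave the 8 kept genes with a heat shock match a median of 0.033, against -0.03. With loess centring the median of all kept genes was -0.0003. At the 70th percentile 1 gene in place of 2 was higher by more than 0.32 and 0 in place of 1 at least 1.5-fold higher, because FKBP7 did not pass that filter. HSPA4L joined BAG3 and PFDN2 as the third gene lower by more than 0.32 under each form of centring and under quantile normalization. The differences of BAG3, PFDN2, HSPA2 and FKBP7 kept their direction under the 4 alternatives that rescale the values or average probe sets, between -0.58 and -0.53 for BAG3, -0.47 and -0.42 for PFDN2, 0.43 and 0.48 for HSPA2 and 0.73 and 0.77 for FKBP7. Of the 24 kept genes, 4 changed sign under at least 1 of these: HSPA1L, HSPB1, HSPH1 and BAG5. The medians of the BAG and HSP110 families also changed sign when the median of all kept genes was subtracted, to -0.03 and -0.02. SQSTM1 stayed between -1.39 and -1.34.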
